A study of Mus musculus with 2 samples.

Results

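The genes described here are the 4 receptors of the ErbB family, Erbb3, Erbb2, Egfr and Erbb4, and Errfi1, which encodes an inhibitor of these receptors. They were taken by symbol from the deposited count tables and are 5 of the 19070 genes measured. Their UMIs (unique molecular identifiers, 1 for each captured molecule) were summed by library and by cell class. Erbb3, Erbb2 and Errfi1 had their highest levels in epithelial cells, whereas Egfr was at least as high in stromal cells. Within the control epithelium, Egfr was lowest in the cluster led by gland genes, which did not differ beyond counting error from a cluster led by Ltf and Lcn2. Stromal Erbb3 counts, relative to epithelium, were within the range of other epithelial genes, and Erbb4 was close to 0 throughout. In the library with the Erbb3 deletion, the levels of Erbb3, Erbb2 and Egfr over all cells were lower than in the control library.

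ErbB receptors are tyrosine kinases of the cell surface that bind growth factors of the EGF and neuregulin families and signal as pairs. Erbb3 binds neuregulins but has an impaired kinase and depends on a partner such as Erbb2, which itself has no known ligand. Egfr binds EGF, TGFA, amphiregulin and HBEGF, and Erbb4 binds neuregulins and some EGF-like ligands. Errfi1, also known as Mig-6, binds the kinase domain of Egfr and other family members and restrains it, and it is known in the uterus for its part in the progesterone response.

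Cells of the mouse endometrium, taken on pregnancy day 3, had been sequenced as 1 library with the genotype Erbb3 f/f, the control with the floxed gene intact, and 1 library with the genotype Erbb3 d/d, described by the submitters as deleted for Erbb3 in the stroma. Tissue was fixed and dissociated before the Chromium Flex assay, which counts transcripts through probes that bind them. The labels used here name neither the Cre line that drove the deletion, nor the age, nor the number of mice behind each library. With 1 library for each genotype no difference below has a replicate check, and all intervals are 95% intervals for counting error only.

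There were 5783 barcodes and 6819591 UMIs in the f/f library, and 2125 barcodes and 2866862 UMIs in the d/d library. No full barcode was shared between the libraries. After barcodes with over 10% mitochondrial UMIs had been left out, 5503 f/f cells and 1830 d/d cells remained, with medians of 809 and 764.5 UMIs. Cells were assigned to a class by a gate on marker UMIs, which left 38.1% of f/f and 45.5% of d/d cells ungated. Into the gate fell 1685 f/f and 587 d/d epithelial cells, and 1484 and 323 stromal cells. It held 117 and 34 endothelial cells, 69 and 30 macrophages and other myeloid cells, and only 30 and 12 mesothelial cells. Clusters of all cells, named "-like" from the same markers, were used beside the gate because they hold more of these smaller classes. The 5 genes were kept out of the clustering. The 2 large gates were set on the markers, so the marker sums describe these gates and cannot test their names. Epithelial markers summed to 4305 CPM (counts per 1000000 UMIs of the class) in f/f epithelium and 405 CPM in f/f stroma. Stromal markers summed to 280 and 10692 CPM.

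In Ensembl's annotation of GRCm38 the 5 genes are protein-coding. Erbb3 (ENSMUSG00000018166) lies on chromosome 10 from 128567523 to 128589652, on the minus strand. Erbb2 (ENSMUSG00000062312) lies on chromosome 11 from 98412470 to 98437716, and Egfr (ENSMUSG00000020122) on the same chromosome from 16752203 to 16918158, both on the plus strand. Erbb4 (ENSMUSG00000062209) lies on chromosome 1 from 68032186 to 69108059 on the minus strand, and Errfi1 (ENSMUSG00000028967) on chromosome 4 from 150853919 to 150868892 on the plus strand. The number and positions of the probes for each gene are not given in the sources used here. Levels are therefore compared across cell classes for 1 gene at a time and not between genes, and it is not known whether the Erbb3 probes lie in the deleted part of the gene.

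Erbb3, the neuregulin receptor, was an epithelial transcript in both libraries. Gated epithelial cells of the f/f library had 141 Erbb3 UMIs, which is 81.0 CPM, with an interval from 68.2 to 95.5. Gated stromal cells of the same library had 18 UMIs, or 12.8 CPM (7.60 to 20.3). The d/d library had 31 UMIs in epithelial cells (55.4 CPM) and 2 in stromal cells (7.53 CPM). Epithelial cells were thus the higher class in both libraries. The epithelial level was 6.32-fold the stromal one in f/f, a log2 ratio of 2.66 (1.95 to 3.46), and the d/d log2 ratio was 2.88 (0.90 to 5.99). In the clusters the f/f log2 ratio was 3.89 (2.64 to 5.53), from 222 epithelial-like and 5 stromal-like UMIs.

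An Erbb3 UMI was found in 126 of the 1685 f/f epithelial cells (7.48%, 6.27 to 8.84) and among the 587 of d/d in 26 (4.43%, 2.91 to 6.42). The median depths were 877 and 851 UMIs. In stromal cells the shares were 1.21% of f/f cells and 0.62% of d/d cells, at medians of 750.5 and 698 UMIs. Macrophages and other myeloid cells, a class not known for Erbb3, had 1 cell with a UMI among 69 in f/f, which is 1.45% (0.04 to 7.81) at a median of 667 UMIs, and none among 30 in d/d. These classes are too small to say whether the stromal share stands above that of a class that should lack the gene. When each cell was thinned to 500 UMIs, the f/f shares were 3.92% of epithelial and 0.20% of stromal cells, and the last is 3 of 1473 cells.

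A set of 12 epithelial genes took no part in the gate, among them the keratins Krt8, Krt18 and Krt19 and the protease inhibitor Spint1. Their levels in other classes gave a range to set the members against. They were not kept out of the clustering. Own expression of these genes in the other classes was not excluded, and Krt7 was at 256% of its epithelial level in f/f mesothelial-like cells. In gated f/f stromal cells these genes stood at 13.1% to 22.2% of their epithelial level, with a median of 18.0%. Erbb3 stood at 15.8%, and 8 of the 12 genes were at or above it. In the stromal-like cluster Erbb3 was at 6.8% of its epithelial level, with 9 of the 12 at or above it. In d/d stromal cells it was at 13.6%, with 11 of the 12 at or above it. Stromal Erbb3 UMIs thus lay within the range of the held-out genes. Low expression in stromal cells and epithelial RNA counted in them cannot be told apart by these values, and the depth did not allow a loss of stromal Erbb3 to be seen. The d/d over f/f log2 ratio in gated stroma was -0.77 with an interval from -3.92 to 1.29.

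**Figure D1:**
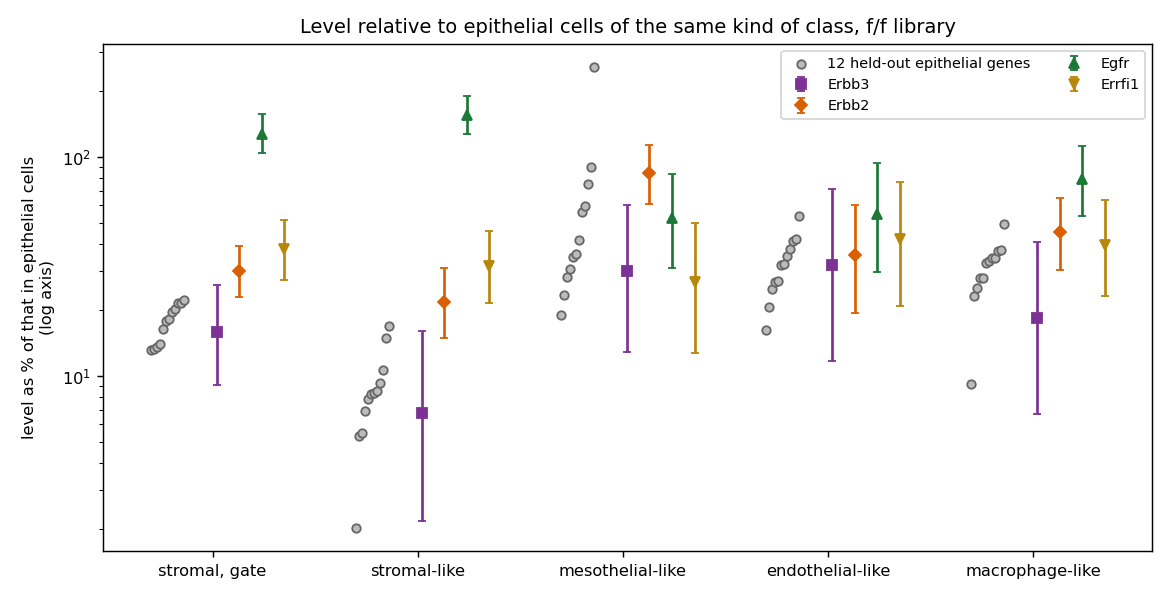
Level of each gene in 5 classes of the f/f library as a percent of its level in epithelial cells (vertical log axis; the gated class against gated epithelium, clusters against epithelial-like clusters), with 95% counting intervals for the 4 ErbB-related genes and grey points for 12 epithelial genes held out of the gates. In gated stroma Erbb3 (15.8%) sits among the grey points, Erbb2 (30.1%) and Errfi1 (37.9%) lie above all of them, and Egfr is at 127%.

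Of the other classes, the endothelial-like cluster had 6 Erbb3 UMIs in f/f (24.0 CPM), the mesothelial-like cluster 8 (22.4 CPM) and the macrophage-like cluster 6 (13.8 CPM). The 3 levels did not differ beyond their counting intervals, and each lay below the epithelial-like level of 74.7 CPM. Epithelial-like cells were 3.11-fold the endothelial-like level, a log2 ratio of 1.64 (0.49 to 3.10), in a contrast where 14.8% of genes were at least 2-fold higher in epithelium. Against mesothelial-like cells the log2 ratio was 1.73 (0.73 to 2.96), with 13.9% of genes at least 2-fold higher, and against macrophage-like cells 2.44 (1.30 to 3.90), with 12.6%. The held-out genes at or above the relative level of Erbb3 were 7 of 12 in endothelial-like, 9 of 12 in mesothelial-like and 11 of 12 in macrophage-like cells.

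Erbb2, the partner receptor without a ligand of its own, was also highest in epithelial cells but was not confined to them. The f/f library had 288 UMIs in gated epithelium (165 CPM, 147 to 186) and 70 in gated stroma (49.9 CPM, 38.9 to 63.0). The d/d library had 60 UMIs in epithelium (107 CPM) and 12 in stroma (45.2 CPM). Epithelium was 3.32-fold the stromal level in f/f, with a log2 ratio of 1.73 (1.35 to 2.13), and the log2 ratio in d/d was 1.25 (0.34 to 2.28). Among the 4 genes, Erbb3, Erbb2 and Errfi1 were at least 2-fold higher in epithelium in both libraries, against 15.3% of all genes tested in f/f and 16.6% of those in d/d, where Erbb3 with 31 and 2 UMIs was under the minimum of 50 and is not among the genes tested. With clusters as classes the same 3 genes were past 2-fold in f/f, against 18.9% of genes.

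The relative level of Erbb2 in gated f/f stroma was 30.1% of its epithelial level, and none of the 12 held-out genes reached it. In the stromal-like cluster it was 21.8%, where the highest of the 12 was at 16.8%. In f/f the relative level of stromal Erbb2 was thus above those of the 12 genes under both ways of assigning cells, but the intervals overlapped. In the gate they were 22.9% to 39.3% for Erbb2 and 14.1% to 33.9% for Rab25. In the cluster they were 14.9% to 30.9% for Erbb2 and 7.9% to 31.7% for Esrp2. Erbb2 was kept out of the clustering and the 12 genes were not, so the cluster comparison is not an equal one. In d/d stroma 1 of the 12 genes exceeded Erbb2, which was at 42.1%.

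Mesothelial-like cells, named for the layer that covers the outside of the uterus, had an f/f Erbb2 level as high as the epithelium within counting error. It was 132 CPM from 47 UMIs, against 157 CPM in epithelial-like cells, and the epithelial over mesothelial log2 ratio was 0.25 (-0.18 to 0.72). Stromal-like cells lay below mesothelial-like ones by 1.94 on the log2 scale (-2.62 to -1.28), in a contrast where 10.5% of genes were at least 2-fold lower in stroma. Macrophage-like cells were at 71.1 CPM and endothelial-like cells at 56.0 CPM, and these neighbours did not differ beyond counting error (0.34, -0.61 to 1.37). Endothelial-like and stromal-like cells (34.3 CPM) did not differ beyond it either (log2 ratio of stroma over endothelium -0.71, -1.64 to 0.30). Only Krt7 and Krt19, keratins that mesothelium also makes, were above Erbb2 in mesothelial-like cells relative to epithelium. The summed markers of epithelium stood at 923 CPM in these f/f cells and at 3280 CPM in epithelial-like cells, and their part in the Erbb2 level was not tested. Stromal markers summed to more than mesothelial ones in this cluster, with values given below, and their part was not tested either.

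Egfr, the receptor of EGF and related ligands, had the opposite order in f/f, with the stroma above the epithelium as a whole. Some epithelial subsets described below had f/f levels near that of the stroma, such as cluster 2 at 146 CPM (119 to 177). In f/f it had 189 UMIs in gated epithelium (109 CPM, 93.6 to 125) and 194 in gated stroma (138 CPM, 119 to 159). In d/d it had 48 UMIs in epithelium (85.8 CPM) and 24 in stroma (90.4 CPM). The f/f epithelial level was lower than the stromal one, with a log2 ratio of -0.35 (-0.64 to -0.05), and the d/d levels did not differ beyond counting error (-0.07, -0.81 to 0.70). Clusters gave 102 CPM in epithelial-like and 158 CPM in stromal-like f/f cells, a log2 ratio of -0.64 (-0.92 to -0.35).

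A UMI of Egfr was found in 165 of 1484 f/f stromal cells (11.1%) and in 171 of 1685 epithelial cells (10.1%). Relative to epithelium, stromal Egfr stood at 127%, where the highest held-out gene reached 22.2%. The 2 gated stromal subsets did not differ beyond counting error. Each subset held cells with at least 2 UMIs summed over its 2 genes, which need not both be present. The Pth1r and Scube1 subset had 146 CPM (75 UMIs in 415 cells), and the Col6a4 and Adam12 subset had 142 CPM (61 UMIs in 337 cells). The log2 ratio of the second subset over the first was -0.04 (-0.55 to 0.47). A cell could be in both subsets, and the interval treats their counts as separate, so shared cells draw this ratio towards no difference.

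The other f/f classes had lower Egfr levels than the stroma. Mesothelial-like cells had 53.3 CPM and endothelial-like cells 56.0 CPM, which did not differ beyond counting error (-0.07, -1.14 to 1.04). The stromal-like level was 2.97-fold the mesothelial-like one (log2 ratio 1.57, 0.88 to 2.34) and 2.83-fold the endothelial-like one (1.5, 0.71 to 2.40), and 12.7% of genes were at least 2-fold higher in stroma in each of these contrasts. Macrophage-like cells had 80.2 CPM from 35 UMIs, but the smaller macrophage gate had 2 UMIs in 69 cells (36.7 CPM). Stromal markers summed to 6162 CPM in the macrophage-like cluster and to 367 CPM in the macrophage gate, with 0 and 5 of the 13 markers at 0. The part of stromal RNA in the cluster's Egfr level was not tested.

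Errfi1, the receptor inhibitor, was also highest in epithelium, but unlike Erbb2 it was low in f/f mesothelial-like cells. The f/f library had 180 UMIs in gated epithelium (103 CPM, 88.8 to 120) and 55 in stroma (39.2 CPM, 29.5 to 51.0). The d/d library had 44 UMIs in epithelium (78.6 CPM) and 10 in stroma (37.6 CPM). Epithelium was 2.64-fold the stroma in f/f, a log2 ratio of 1.40 (0.96 to 1.86), and the d/d log2 ratio was 1.06 (0.05 to 2.22). In f/f stroma Errfi1 was at 37.9% of its epithelial level, above all 12 held-out genes, and in the f/f stromal-like cluster, at 31.8%, it was also above all of them. In d/d it was above all 12 in gated stroma (47.9%), but in the stromal-like cluster, from 2 UMIs, it was at 15.9% with 3 of the 12 at or above it. Endothelial-like (44.0 CPM), macrophage-like (41.3 CPM), stromal-like (33.3 CPM) and mesothelial-like (28.1 CPM) cells of f/f lay close together, and neighbours in this order did not differ beyond counting error. The endothelial-like level was the nearest to that of epithelial-like cells, 105 CPM, with an epithelial over endothelial log2 ratio of 1.25 (0.39 to 2.27).

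Erbb4, the remaining receptor, was close to absent from the counts. The f/f library had 5 Erbb4 UMIs in 5503 cells, or 0.91 CPM (0.29 to 2.11), and the d/d library had 1 UMI in 1830 cells, or 0.58 CPM (0.01 to 3.25). Gated epithelium had 1 UMI in f/f and none in d/d, and gated stroma had 0 in both libraries. No fold is given for so few counts. The upper bound for f/f epithelium was 3.20 CPM, and whether the Erbb4 probes work cannot be seen in these data.

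**Figure D2:**
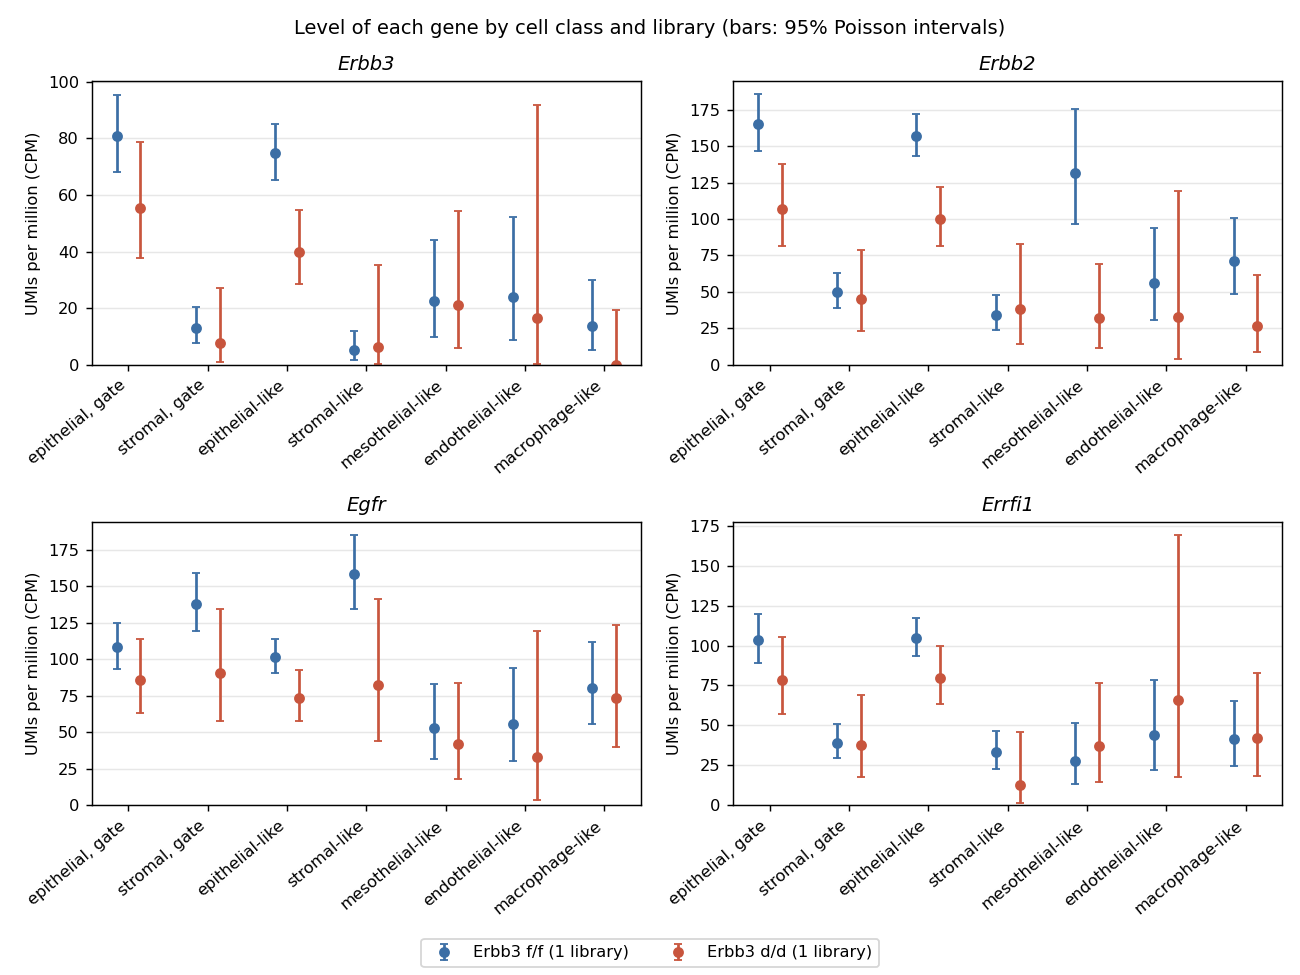
Level of Erbb3, Erbb2, Egfr and Errfi1 in CPM (vertical axes, from 0) in gated epithelium and stroma and in 5 cluster classes, with blue points for the 1 f/f library, red points for the 1 d/d library and 95% Poisson intervals. Erbb3, Erbb2 and Errfi1 are highest in epithelium, Egfr is highest in f/f stroma, and Erbb2 in mesothelial-like cells is at 132 CPM in f/f and 31.8 CPM in d/d.

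The epithelium was not uniform in Egfr. Of the 4 large epithelial-like clusters, cluster 3 was led by Syn2 and by Cxcl15, a gene known from uterine glands, and is called the gland-gene cluster here. Cluster 0 was led by Slc5a11 and Lrp2, cluster 5 by Ltf and Lcn2, and cluster 2 by mitotic genes such as Top2a. In f/f the gland-gene cluster had 19 Egfr UMIs in 828 cells, or 26.1 CPM. Cluster 0 had 171 UMIs in 1446 cells (127 CPM), cluster 2 had 101 UMIs in 501 cells (146 CPM) and cluster 5 had 11 UMIs in 223 cells (58.9 CPM). The level in cluster 0 was 4.87-fold that of the gland-gene cluster, a log2 ratio of 2.28 (1.60 to 3.05). Cluster 2 was 5.59-fold higher than it (2.48, 1.77 to 3.27), and cluster 5 did not differ from it beyond counting error (1.18, -0.04 to 2.32). At least 2-fold higher levels were found for 603 of 7535 genes in cluster 0 over cluster 3 and for 9.52% of genes in cluster 2 over cluster 3.

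Among gated epithelial cells of f/f, those with glandular markers also had the lowest Egfr level of the subsets. Cells with Ltf or Clca3b UMIs did not have the low level of cluster 5. The 53 f/f epithelial cells with glandular marker UMIs had 2 Egfr UMIs, or 26.1 CPM. The 730 cells with Lrp2 or Slc5a11 UMIs, at least 2 summed over both genes, had 117, or 136 CPM. The glandular level was the lower one, with a log2 ratio of -2.38 (-5.45 to -0.50) in a contrast where 12.6% of genes were at least 2-fold lower. These sub-gates can share cells too, which the interval does not allow for. Cells with Ltf or Clca3b UMIs had 133 CPM (16 UMIs), cells with Muc4 or Ptpn22 UMIs 185 CPM (14 UMIs) and cells in no sub-gate 73.3 CPM (40 UMIs). A UMI of Egfr was present in 2.17% of f/f gland-gene cluster cells at a median of 709 UMIs. The d/d library had 65 cells in the gland-gene cluster, with 3 Egfr UMIs, and a comparison of libraries there was not possible at this depth (1.23, -1.16 to 3.00).

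The other genes varied less among the epithelial-like clusters. Erbb2 in f/f ran from 89.1 CPM in the gland-gene cluster over 140 CPM in cluster 2 and 191 CPM in cluster 0 to 246 CPM in cluster 5. Cluster 0 was 2.14-fold and cluster 5 2.76-fold the gland-gene cluster, with log2 ratios of 1.10 (0.70 to 1.51) and 1.47 (0.89 to 2.03), and 6.96% of genes were at least 2-fold higher in cluster 5 over the gland-gene cluster. Clusters 0 and 5 did not differ beyond counting error (-0.37, -0.83 to 0.12). Erbb3 ran from 59.0 CPM in the gland-gene cluster to 112 CPM in cluster 5, a log2 ratio of 0.93 (0.10 to 1.72), with clusters 0 and 2 between them at 76.5 and 79.3 CPM. In the gates, the 84 f/f cells with Ltf or Clca3b UMIs had 158 CPM of Erbb3, 2.22-fold that of epithelial cells in no sub-gate (log2 ratio 1.15, 0.27 to 1.97), where 2.15% of genes were at least 2-fold higher. Errfi1 lay between 92.3 CPM in cluster 2 and 145 CPM in cluster 5, and its level in the gland-gene cluster, 112 CPM, did not differ from cluster 0 beyond counting error (-0.14, -0.55 to 0.27). The gland-gene cells were thus low in Egfr and Erbb2, and a like difference in Errfi1 was not seen.

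**Figure D3:**
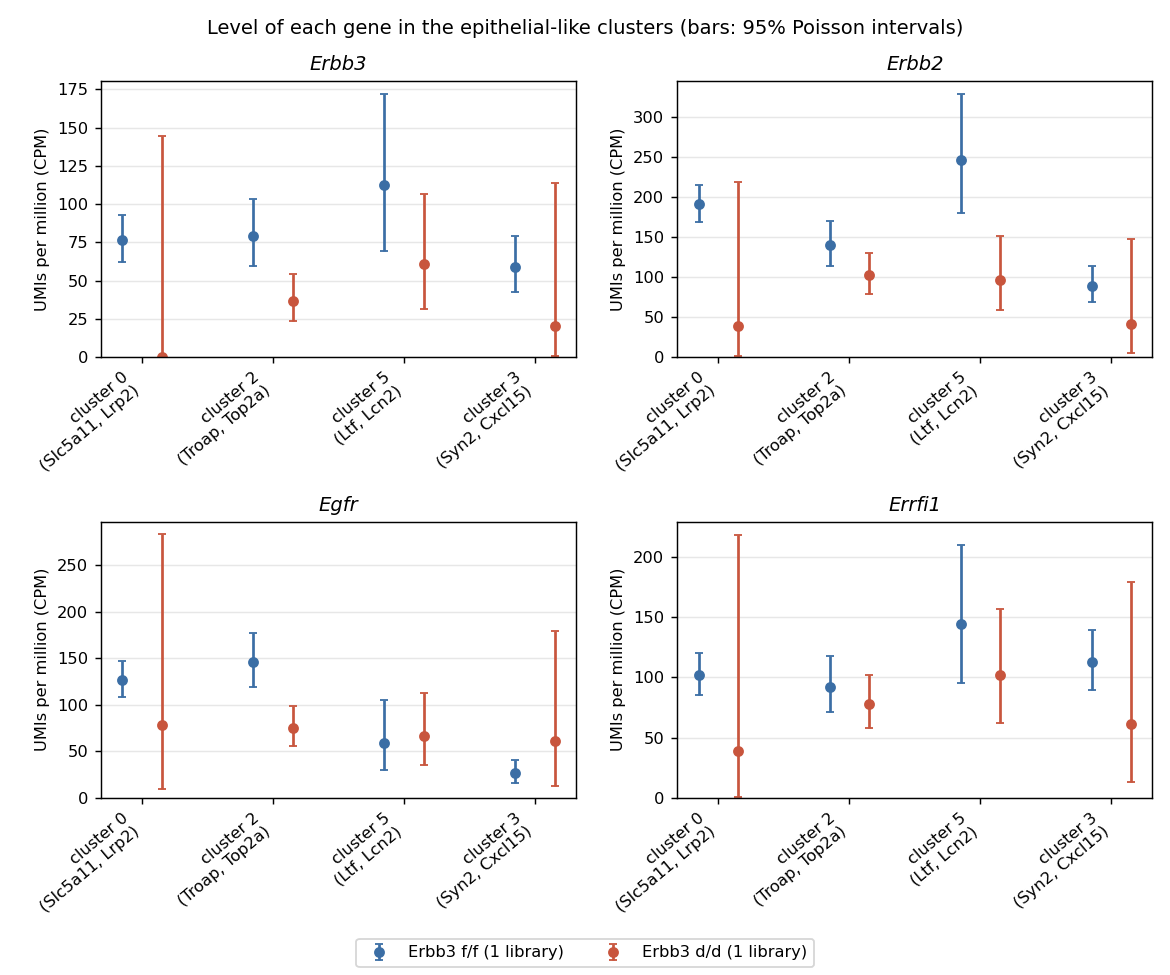
Level of Erbb3, Erbb2, Egfr and Errfi1 in CPM (vertical axes, from 0) in 4 epithelial-like clusters, labelled by 2 of their leading genes, with the f/f library in blue, the d/d library in red and 95% Poisson intervals. In f/f, Egfr is at 26.1 CPM in the Syn2 and Cxcl15 cluster and at 127 and 146 CPM in clusters 0 and 2, and the d/d intervals of clusters 0 and 3 are wide because these hold 31 and 65 d/d cells.

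The comparison of the 2 libraries asks whether the receptors and Errfi1 differ in endometrium labelled as lacking stromal Erbb3. A gene was counted as lower or higher where it had at least 50 UMIs over both libraries and differed by at least 1.5-fold. Over all cells Erbb3 had 271 UMIs in f/f (49.1 CPM) and 47 in d/d (27.4 CPM), with a d/d over f/f log2 ratio of -0.84 (-1.32 to -0.39). Erbb2 was at 119 and 74.7 CPM (-0.68, -0.96 to -0.40), and Egfr at 107 and 66.6 CPM (-0.68, -0.98 to -0.39). Errfi1 was at 73.6 and 63.1 CPM (-0.22, -0.54 to 0.09). Of the 4 genes, the 3 receptors were past 1.5-fold lower, against 11.3% of the 11058 genes tested. These values mix cell types, and the epithelial markers summed to 2204 and 2442 CPM and the stromal ones to 3928 and 3330 CPM, in the order f/f, d/d.

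Erbb3 counts were lower in d/d in the epithelium, by more in the clusters than in the gate. In gated epithelium the log2 ratio was -0.55 (-1.16 to 0.02), from 81.0 to 55.4 CPM, and did not reach 1.5-fold. In epithelial-like clusters, with more cells, it was -0.90 (-1.43 to -0.41), from 74.7 to 39.9 CPM. The cluster with the most cells of that class was cluster 0 in f/f (1446 of 3012 cells) and cluster 2 in d/d (654 of 1074 cells). Within cluster 2, Erbb3 had 55 UMIs in f/f (79.3 CPM) and 24 in d/d (36.6 CPM), a log2 ratio of -1.12 (-1.87 to -0.40). In cluster 5 the levels were 112 and 61.0 CPM (-0.88, -2.04 to 0.21). Cycling gated cells, which had UMIs of mitotic and replication genes, had 66.2 and 55.8 CPM (-0.25, -1.09 to 0.57).

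Ungated cells gave the largest Erbb3 difference of the classes in the plot of ratios by class. There were 111 Erbb3 UMIs in f/f (50.8 CPM) and 12 in d/d (14.7 CPM), with a log2 ratio of -1.79 (-2.79 to -0.93). Erbb2 (-1.08, -1.54 to -0.65) and Egfr (-0.92, -1.45 to -0.42) were also lower there, so that 3 of the 4 genes were past 1.5-fold, against 11.7% of genes. Epithelial markers summed to 1848 CPM in ungated f/f and 1814 CPM in ungated d/d cells, and stromal markers to 2757 and 2963 CPM. The cell types among the ungated cells were not resolved, and their part in these differences was not tested.

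Erbb2 was lower in d/d epithelium, in the gate and in the clusters. Gated epithelium went from 165 CPM in f/f to 107 CPM in d/d, a log2 ratio of -0.63 (-1.05 to -0.22), and the epithelial-like clusters from 157 to 100.4 CPM (-0.65, -0.98 to -0.33). Erbb2 was the only one of the 4 genes past 1.5-fold in the gate, where 15.5% of 7964 genes were lower and 14.8% higher. In the clusters Erbb3 and Erbb2 were past it, against 15.4% of genes. Inside the cycling sub-gate the Erbb2 log2 ratio was -0.55 (-1.13 to 0.02) and outside it -0.57 (-1.34 to 0.10). In cluster 5, 46 UMIs in f/f (246 CPM) stood against 19 in d/d (96.6 CPM), with a log2 ratio of -1.35 (-2.20 to -0.55) and 12.1% of genes past 1.5-fold lower.

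In gated stroma Erbb2 was at 49.9 and 45.2 CPM (-0.14, -1.16 to 0.75), with no difference detectable at this depth. In mesothelial-like cells it was at 132 CPM in f/f and 31.8 CPM in d/d, from 47 and 6 UMIs, a log2 ratio of -2.05 (-3.57 to -0.82). Of the 4 genes it was the only one there with 50 UMIs, and 10.9% of genes were at least 1.5-fold lower in d/d. An Erbb2 UMI was found in 40 of 371 mesothelial-like cells of f/f and 6 of 205 of d/d, and after thinning to 500 UMIs in 17 of 369 and 5 of 204, whose shares of 4.61% (2.71 to 7.27) and 2.45% (0.80 to 5.63) have overlapping intervals. Mesothelial markers summed to 3835 and 2672 CPM, epithelial ones to 923 and 1325 CPM and stromal ones to 5395 and 5163 CPM, in the order f/f, d/d. The median mitochondrial share of these cells was 1.21% in f/f against 3.16% in d/d, and the part of this and of the markers in the difference was not tested. Macrophage-like cells had 31 and 5 Erbb2 UMIs (71.1 and 26.3 CPM, -1.43, -3.15 to -0.06), fewer than the minimum for a call.

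Egfr had lower levels in d/d stroma, in d/d cycling epithelium, in the ungated cells above and in the cluster left unnamed. The unnamed cluster (305 f/f and 106 d/d cells) had 151 CPM from 58 UMIs in f/f and 51.6 CPM from 5 in d/d. Its log2 ratio was -1.55 (-3.22 to -0.24), against 18.6% of genes past 1.5-fold lower. Gated stroma had 138 CPM in f/f and 90.4 CPM in d/d, a log2 ratio of -0.61 (-1.29 to 0.003) whose interval included 0. There Egfr was the only one of the 3 genes with 50 UMIs that passed 1.5-fold, against 15.4% of 7429 genes lower and 9.36% higher. In the stromal-like cluster the ratio was -0.94 (-1.88 to -0.12), from 157 and 13 UMIs, against 18.6% of genes lower. Both stromal sub-gates, which share cells and are not separate observations, had the lower level in d/d. Pth1r and Scube1 cells had 73.5 CPM against 146 CPM (-0.99, -2.65 to 0.30). Col6a4 and Adam12 cells had 96.9 against 142 CPM (-0.55, -1.47 to 0.28). The median mitochondrial share of gated stromal cells was 1.11% in f/f against 2.33% in d/d, and the summed stromal markers stood at 10692 and 11683 CPM. The epithelial markers stood at 405 and 493 CPM there, with none of the 13 at 0 in either library, and the part of these in the Egfr ratio was not tested.

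In gated epithelium as a whole Egfr was at 109 and 85.8 CPM (-0.34, -0.83 to 0.12). Of the 1685 f/f cells 364 were cycling, and of the 587 d/d cells 368. Inside the cycling sub-gate Egfr went from 146 CPM (75 UMIs) to 78.7 CPM (31 UMIs), a log2 ratio of -0.89 (-1.55 to -0.27), and it was the only one of the 4 genes past 1.5-fold there, against 12.1% of genes lower and 11.4% higher. Outside it the levels were 92.9 and 103 CPM (0.15, -0.68 to 0.89), while Erbb3 (-0.68) and Errfi1 (-0.83) were the 2 past 1.5-fold, against 18.0% of genes, with intervals that included 0. Cluster 2 gave an Egfr log2 ratio of -0.96 (-1.49 to -0.46). In f/f the cycling cells had more Egfr than the others by 0.65 on the log2 scale (0.21 to 1.09), whereas in d/d the log2 ratio was -0.39 (-1.28 to 0.56). The difference between these 2 ratios was not tested.

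Errfi1 differed least of the 4 genes over all cells. In gated epithelium the log2 ratio was -0.39 (-0.90 to 0.09), and in epithelial-like clusters -0.39 (-0.77 to -0.03), from 105 to 79.9 CPM. In gated stroma it was -0.06 (-1.20 to 0.93), too wide an interval at 55 and 10 UMIs to show a difference of 1.5-fold either way. Cycling epithelium had 93.4 and 86.3 CPM (-0.12, -0.79 to 0.55). Mesothelial-like (28.1 and 37.1 CPM), endothelial-like (44.0 and 66.0 CPM) and macrophage-like cells (41.3 and 42.1 CPM) had intervals that included 0.

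**Figure D4:**
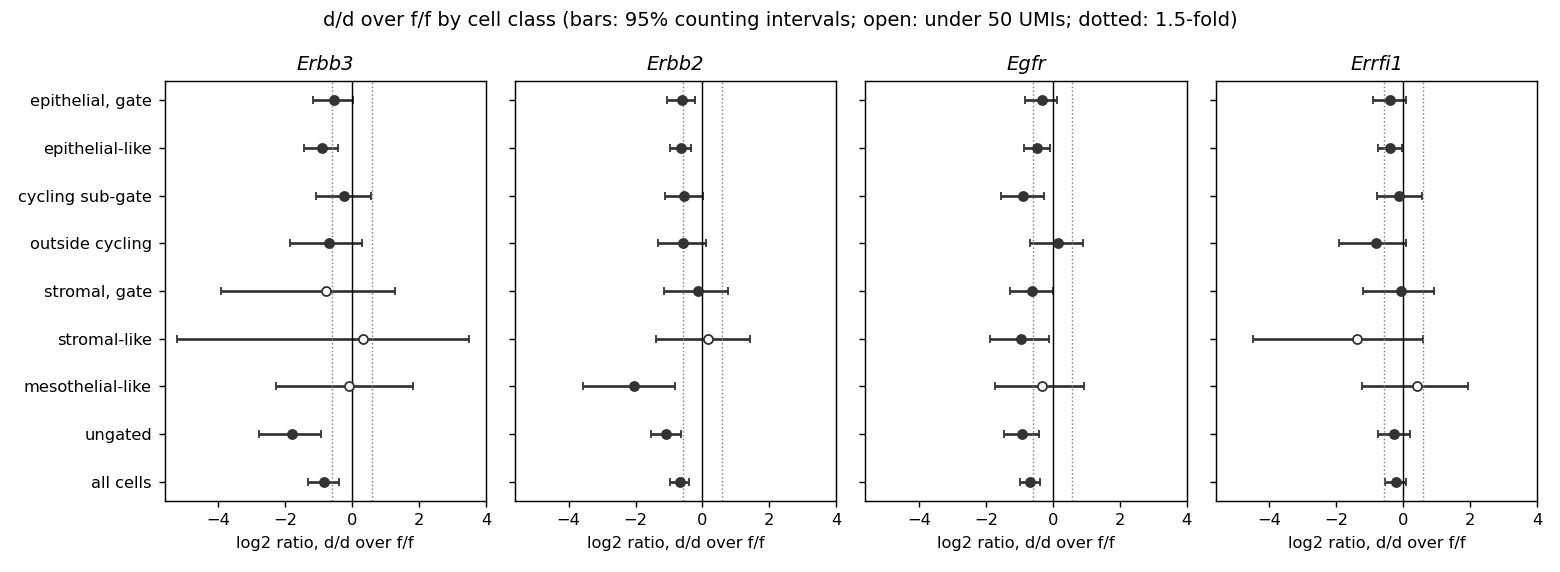
Ratio of the d/d to the f/f level as log2 (horizontal axes) for Erbb3, Erbb2, Egfr and Errfi1 in 9 classes, with 95% counting intervals, open points where a gene has under 50 UMIs over both libraries and dotted lines at 1.5-fold. Erbb3 is lowest in ungated cells (-1.79), Erbb2 in mesothelial-like cells (-2.05), and Egfr is at -0.89 in cycling and 0.15 in other epithelial cells.

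The wider ErbB pathway was described with a list of 64 ligands, adaptors and kinases, inhibitors and target genes, which includes Errfi1. The list was chosen with earlier results of these data known, so its counts are a description. In gated epithelium 43 of the 64 had at least 50 UMIs, of which 6 were at least 1.5-fold lower and 6 higher in d/d, with a median log2 ratio of -0.09. Over all genes the median was -0.02. In gated stroma 35 were counted, with 5 lower and 2 higher and a median of -0.07, the same as the -0.07 of all genes. Of all genes, 15.5% in epithelium and 15.4% in stroma were lower, and 14.8% and 9.36% were higher. The counts for the list are close to this background.

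Target genes, which growth factor signalling is known to induce, were the group with most epithelial members higher in d/d. Of 6 counted, 5 were past 1.5-fold higher, against 14.8% of all genes. Because earlier results were known when the list was chosen, this count is not independent support for a rise of the group. Ccnd1, which encodes cyclin D1, had 88 UMIs in f/f (50.5 CPM) and 71 in d/d (127 CPM), a log2 ratio of 1.33 (0.86 to 1.80). The transcription factor genes Myc (0.85, 0.38 to 1.32), Etv5 (0.83, 0.36 to 1.29) and Klf6 (0.74, 0.31 to 1.16) and Phlda1 (0.83, 0.11 to 1.53) were the others, and Ier3 was at -0.09. In cycling epithelium 2 of 4 counted target genes were past 1.5-fold higher, Ccnd1 at 1.97 and Etv5 at 1.16, against 11.4% of genes, and Myc (0.23, -0.46 to 0.92) and Klf6 (0.43, -0.10 to 0.96) were not. The share of cycling cells was larger in d/d epithelium, and its part in these levels was not tested. In f/f, cycling cells were below all gated epithelium for Ccnd1 (29.2 against 50.5 CPM) and Etv5 (54.5 against 64.3 CPM). They were above it for Myc (77.9 against 61.5 CPM), Klf6 (119 against 79.3 CPM) and Phlda1 (31.1 against 28.1 CPM). In stroma Ccnd1 (-1.48, -3.40 to -0.05) and Myc (-0.83, -1.22 to -0.47) were lower among 5 counted and none was higher. Of all genes there, 15.4% were lower and 9.36% higher. Etv4, far under the minimum, had 3 and 4 UMIs in stroma (2.82, 0.25 to 5.59) and 2 and 5 in epithelium (2.96, 0.35 to 6.35). The difference between epithelium and stroma was not tested. Myc had 641 UMIs in f/f stroma (457 CPM) and 68 in d/d (256 CPM).

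Ligands of the receptors were sparse, with 3 counted in epithelium, 1 of them lower and 1 higher, and 1 counted in stroma, which was higher. Of all genes, 15.5% were lower and 14.8% higher in epithelium, and 9.36% were higher in stroma. Tgfa, a ligand of Egfr, had 30 and 25 UMIs in epithelium (17.2 and 44.7 CPM), a log2 ratio of 1.37 (0.55 to 2.19). Nrg4, a neuregulin that binds Erbb4, had 139 and 24 UMIs (79.8 and 42.9 CPM, -0.90, -1.59 to -0.26), and Hbegf, another Egfr ligand, was at 29.9 and 30.4 CPM (0.02). Nrg2, a ligand of Erbb3 and Erbb4, was the only ligand with at least 50 UMIs in stroma, with 102 CPM in f/f and 196 CPM in d/d (0.94, 0.46 to 1.41). Under that minimum, the neuregulin Nrg1 had 14 and 16 UMIs in stroma (9.97 and 60.2 CPM, 2.59, 1.47 to 3.74). In epithelium Nrg1 had 26 and 1 UMIs (-3.06, -8.42 to -0.46) and Areg 35 and 2 (-2.49, -5.59 to -0.53). The other ligands under the minimum had intervals that included 0 or no ratio.

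Most inhibitors of the receptors and of their signalling with at least 50 UMIs were within 1.5-fold. Of 11 counted in epithelium, Erbin, which binds Erbb2, was past 1.5-fold lower (-0.62, -1.27 to -0.01), against 15.5% of all genes. Errfi1, Lrig1, Lrig2, Cbl, Cblb, Rnf41, Spry2, Dusp6, Ptpn1 and Ptprk lay between -0.58 for Lrig1 and 0.52 for Dusp6, all with intervals that included 0. Of 9 counted in stroma, Rnf41, a ubiquitin ligase also known as Nrdp1 that targets Erbb3, was past 1.5-fold higher, against 9.36% of all genes. It was at 71.2 and 117 CPM (0.71, 0.08 to 1.31). Errfi1, Lrig1, Lrig3, Cbl, Cblb, Ptpn1, Ptprk and Erbin lay between -0.35 and 0.46 there. Under the minimum, Spry1 (13 and 9 UMIs, 1.87, 0.47 to 3.21) and Spry2 (23 and 11, 1.34, 0.15 to 2.43) were higher in d/d stroma. Dusp4 was higher in d/d epithelium (27 and 20, 1.20, 0.29 to 2.09). The other inhibitors under the minimum had intervals that included 0 or no UMIs. Among adaptors and kinases, 4 of 23 were lower and none higher in epithelium, against 15.5% of all genes lower and 14.8% higher. In stroma 3 of 20 were lower and none higher, against 15.4% of all genes lower and 9.36% higher. Of these Map2k1, the kinase MEK1, was past 2-fold in stroma, with 71 and 5 UMIs (-1.43, -3.09 to -0.14).

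**Figure D5:**
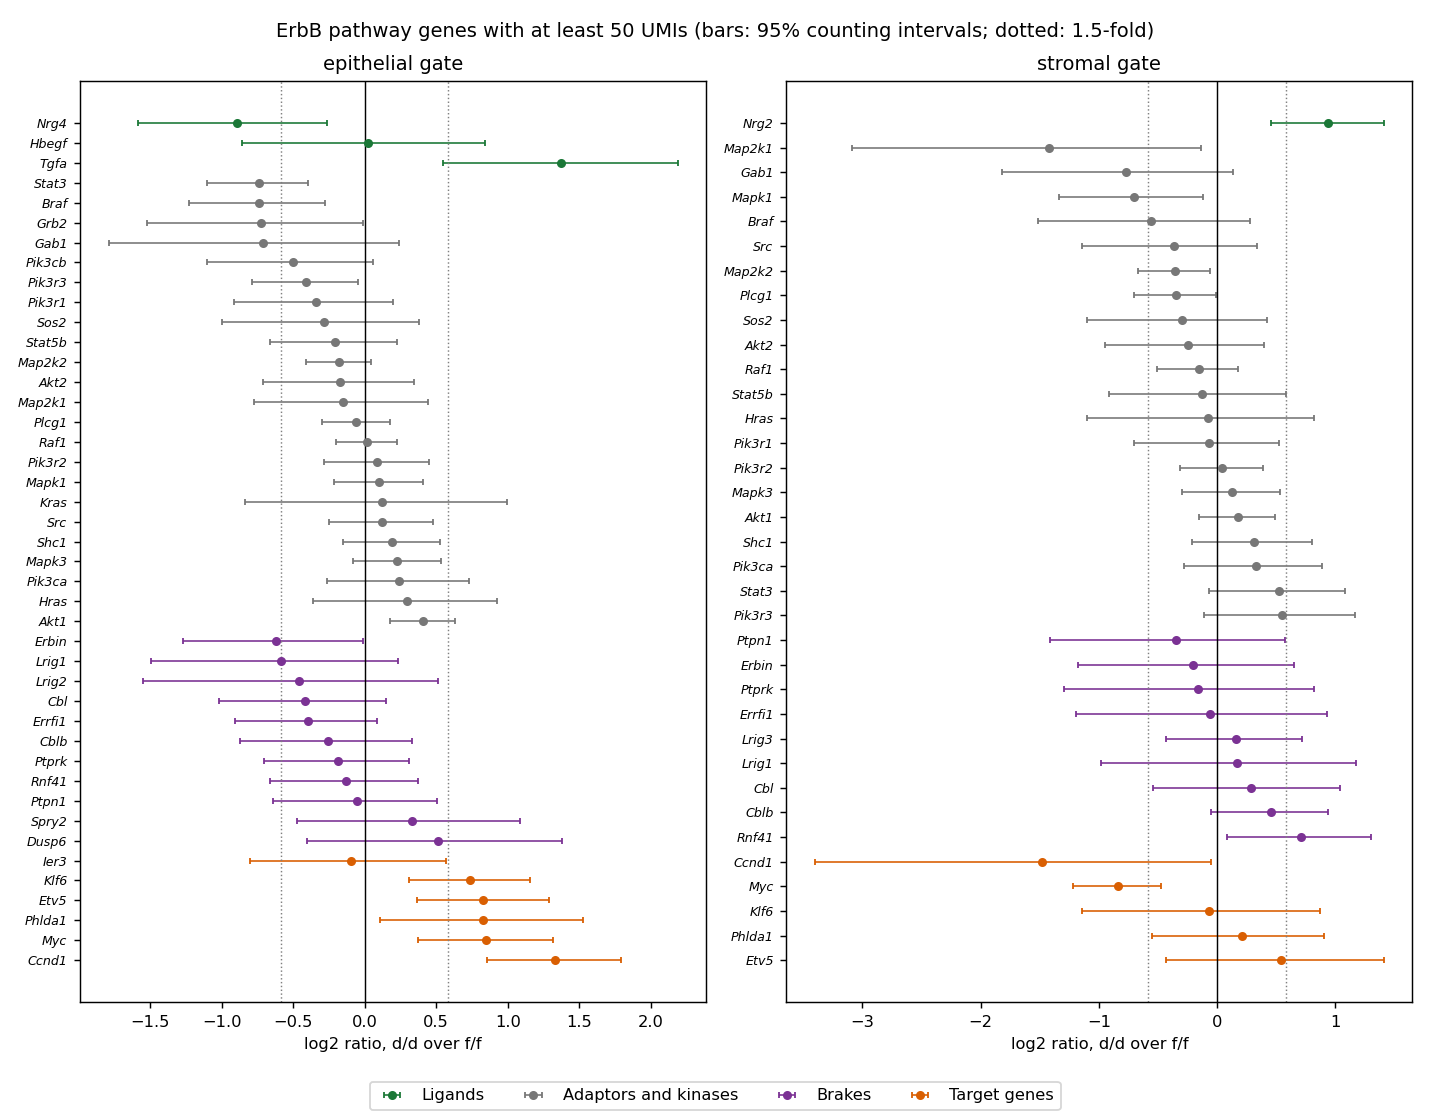
Ratio of the d/d to the f/f level as log2 (horizontal axes) for the ErbB pathway genes with at least 50 UMIs in gated epithelium (left, 43 genes) and stroma (right, 35 genes), coloured by role (brakes are the inhibitors), with 95% counting intervals and dotted lines at 1.5-fold. In epithelium 5 of 6 target genes lie above 1.5-fold, and in stroma Ccnd1 and Myc lie below it.

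The genes most like each of the 4 in their pattern were ranked by Pearson correlation of log2(CPM + 10) over the 6 sums of a gated class in a library with at least 50 cells. These sums share 2 libraries and differ in depth. Erbb3, Erbb2 and Errfi1 were highest in the epithelial sums, and Egfr was high in the epithelial and the stromal ones. The f/f endothelial and macrophage sums rest on few counts, with 0 and 1 UMIs of Erbb3 and 5 and 2 of Egfr. The correlations are therefore a description. For Erbb3 the 5 highest were Cgn (r = 0.996), Depdc5, Grb7, Nhlrc2 and Tmprss4 (0.991). For Erbb2 they were Dbnl (0.991), Plekhh1, Ptprf, Yipf2 and Sgms2 (0.985). For Egfr they were Acads (0.997), Gadd45gip1, Tmem63b, Osgep and Zfp638 (0.984). For Errfi1 they were Lzts3 (0.997), Rlf, Rbbp8nl, Kctd14 and Stc1 (0.987). Over 19 sums of clusters in a library, an alternative chosen after the data had been seen, the first-ranked genes were Fzd6 (0.887) for Erbb3, Tmem50b (0.908) for Erbb2, Sh3gl1 (0.767) for Egfr and Tjp3 (0.917) for Errfi1. The lists of 5 from the gates and from the clusters shared 0 genes for each of the 4. Among the 4 genes themselves, the correlation over clusters was 0.822 for Erbb3 with Erbb2, 0.79 for Erbb3 with Errfi1, 0.151 for Erbb3 with Egfr and -0.007 for Errfi1 with Egfr.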

How the data were processed

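The authors deposited raw UMI counts for each gene in each barcode, and the file headers name Cell Ranger 9.0.0 (per the file headers, no normalization is recorded). The builds mm10 and GRCm39 are named in the submitters' processing notes without their roles. Barcodes with at least 200 genes and at most 10% mitochondrial UMIs were used.

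A cell was gated to 1 of 8 classes where it had at least 2 UMIs from at least 2 markers of the class and these made up at least 2 of every 3 marker UMIs. Of 103 listed gate markers 102 were measured (Cx3cr1 was not). Sub-gates needed 2 UMIs summed over their genes, so a cell in a sub-gate named by 2 genes need not have both. A cell could be in more than 1 sub-gate. Exactly 2 marker UMIs of the class were held by 377 f/f and 136 d/d gated epithelial cells. Clusters came from 2000 variable genes, 30 principal components, 15 neighbours and the Leiden algorithm at resolution 1, which gave 12 clusters. A cluster name needed 3 markers at 50 CPM, a mean relative level of 0.3 and a lead of 0.15, thresholds taken from an earlier analysis of these data, and 1 cluster (305 cells of f/f, 106 of d/d) stayed unnamed. Scrublet called 1 f/f and 5 d/d doublets, too few to rely on, so none were removed and the 5% of barcodes with the highest scores were left out as an alternative.

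UMIs were summed per class and library and given as CPM. Sums have exact Poisson, shares Clopper-Pearson and ratios conditional binomial intervals at 95%. With 1 library per genotype no test was run. A count of 0 was limited by 3 counts. The ratio calculation was tested on simulated data.

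The 5 members, the pathway list, the markers and the rules were chosen with earlier results of these data known. Named by rule were the 5 members, the ligands and inhibitors with at least 50 UMIs in epithelium or stroma, other pathway genes beyond 2-fold, and the 5 genes most correlated with each member among those with at least 200 UMIs. The remaining target genes, and the ligands and inhibitors under that minimum, were named after their values had been seen. Tools were Python 3.11.15, numpy 2.4.6, scipy 1.17.1, pandas 2.3.3, scanpy 1.11.5, leidenalg 0.10.2, edgeR 4.0.16 (TMM scaling alone) and matplotlib 3.10.9.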

Additional observations from a re-analysis of the deposited data

Results flagged for a closer look

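The barcodes left out for a mitochondrial share above 10%, 280 of the f/f library and 295 of the other, were outside the comparisons and still held counts of the 4 genes above the limit that a count of 0 allows. In f/f the levels were 42.2 CPM for Erbb3, 69.9 CPM for Erbb2, 72.2 CPM for Egfr and 55.3 CPM for Errfi1. In d/d they were 24.3 CPM for Erbb3, 49.4 CPM for Erbb2, 43.3 CPM for Egfr and 33.8 CPM for Errfi1. All 4 levels were lower in d/d. The separate Poisson intervals of f/f and d/d were 31.8 to 55.0 and 16.1 to 35.1 for Erbb3. They were 56.3 to 85.8 and 37.4 to 64.0 for Erbb2, and 43.3 to 69.7 and 24.0 to 46.2 for Errfi1. For Egfr they were 58.4 to 88.4 and 32.2 to 57.1, the only pair without overlap. No interval of the ratio was computed here, and overlap of separate intervals does not show that levels were alike. Gated epithelial barcodes supplied 777986 of the 1301796 left-out UMIs of f/f and 586702 of the 1154167 of d/d, and the part of this mix was not tested. These barcodes had medians of 2111.5 and 1599 UMIs. Gated as above, the left-out stromal barcodes of f/f had 18 Egfr UMIs and those of d/d 5.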

How the results depend on the processing

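Of the ratios past 1.5-fold with at least 50 UMIs in gated epithelium and stroma, neither changed sign. Erbb2 in epithelium ran from -0.72 to -0.53 and Egfr in stroma from -0.94 to -0.48 over the alternatives. Erbb3 d/d over f/f ran from -0.90 to -0.12 in epithelium and, with 18 and 2 UMIs, from -1.13 to 0.60 in stroma, where 5 of 8 alternatives had the same sign. The Egfr ratio in epithelium was -0.89 within and 0.15 outside the cycling sub-gate, both chosen after seeing the data. With clusters as classes, the Errfi1 d/d over f/f ratio in stroma was -1.39, and the epithelial over stromal ratio was 3.89 for Erbb3 and 2.20 for Erbb2 in f/f and 2.65 for Errfi1 in d/d. With a gate of 4 marker UMIs and 90% of marker UMIs that ratio in f/f was 4.32 for Erbb3, 2.47 for Erbb2 and -0.69 for Egfr, and with cells thinned to 500 UMIs it was 4.33 for Erbb3. Another 132 alternatives of the main results stayed within the counting interval. Under the stricter gate the stromal Erbb3 ratio between libraries had no value. TMM scaling moved ratios by 0.03 on the log2 scale. At 2-fold instead of 1.5-fold, 451 genes were lower and 472 higher in d/d epithelium (from 1234 and 1179), and 363 and 168 in stroma (from 1147 and 695). With a minimum of 20 UMIs the stromal counts were 1799 and 1357. No paired analysis was possible because each genotype had 1 library. Depth limits the stroma most, where Erbb3 had 18 and 2 UMIs. Spread between animals, differences in cell mix within a class and probe position were not tested.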
